A study of Mus musculus with 6 samples.

Results

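The comparison set the library of cultured mouse ventricular cardiomyocytes treated with GANT61 against the library treated with DMSO, across all genes of the deposited count table. GANT61 is a small molecule that blocks GLI transcription factors, and DMSO is its solvent. The cells came from wild-type mice at postnatal day 1 or 2, and CD90-positive cells were removed with magnetic beads. In each well of a 12-well fibronectin-coated plate 70000 cells were seeded, given 12 h in culture and then treated for 48 h with 3 µM GANT61 or with DMSO. Both groups were primary cultures, and the labels do not say how many animals were pooled for a culture. The labels list 2 samples per group, whereas the table holds 1 column of counts per group, so 2 of its 3 columns were compared. The remaining column, from cells given cyclopamine at 5 µg/ml, is quoted only for context. Of 55487 genes in the table, 15576 passed the expression filter and form the comparison.

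The GANT61 column held 35461530 counts and the DMSO column 36661845, and 19425 and 20120 genes had a count in them. Without a replicate column, no difference can be set against the spread between cultures. Each gene is therefore described by its log2 fold change, GANT61 over DMSO, on CPM values (counts scaled to a common library size) corrected for library composition. The terms higher by size and lower by size stand for genes that reached 1.5-fold with an exact 95% interval, from counting error alone, on 1 side of 0. Such an interval covers counting error only, and PCR copies or differences between wells can exceed it.

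Hedgehog ligands bind Patched receptors, which then release Smoothened at the primary cilium, and Smoothened in turn lets the GLI factors activate their target genes. GLI1 acts as an activator, GLI3 mainly as a repressor once it is cut, and GLI2 mainly as an activator. The pathway patterns the embryonic heart, and in many tissues its targets include genes that drive the cell cycle. Newborn mouse cardiomyocytes are in the last days in which many of them still divide, and they exchange fetal for adult contractile, metabolic and channel proteins at that age.

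The contents of both libraries were read against defining markers first. The 12 cardiomyocyte markers summed to 68470 CPM in GANT61 and 80740 CPM in DMSO, and 0 of them were higher and 2 lower by size, Actn2 and Myl7, where 8.4% and 13.3% of all genes past the filter were. Their median level per kilobase of exon was 592 CPM in GANT61 and 759 CPM in DMSO. The highest other medians per kilobase were those of smooth muscle and pericyte markers, 7.07 CPM in GANT61 and 13.1 CPM in DMSO, and several of those genes are also made by young cardiomyocytes. Epicardial and mesothelial markers had medians of 2.48 CPM in GANT61 and 0.619 CPM in DMSO. Fibroblast markers had medians of 1.91 CPM in GANT61 and 1.77 CPM in DMSO, endothelial markers 0.792 and 0.999 CPM, and macrophage and leukocyte markers 0.0637 and 0.113 CPM. All 7 erythroid markers were at 0 in DMSO, and 6 of the 7 were at 0 in GANT61. Summed over the list, fibroblast markers came to 956.9 CPM in GANT61 and 1405 CPM in DMSO, and endothelial markers to 87.59 and 110.6 CPM. In bulk RNA, fewer cells of a type cannot be told apart from less RNA of its genes per cell.

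Promoters of 3 mitotic genes and 1 cholesterol gene are shown because these groups stood furthest apart between the libraries, in opposite directions. Each run is the 140 bases before the annotated start, 5′ to 3′ on the gene's strand, from RefSeq on GRCm38.p6. Capitals mark 3 motifs on either strand: the NF-Y box CCAAT, the cell cycle homology region TTTGAA and the sterol regulatory element core TCACCCC.

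Ube2c promoter, chr2:164769789-164769928, plus strand: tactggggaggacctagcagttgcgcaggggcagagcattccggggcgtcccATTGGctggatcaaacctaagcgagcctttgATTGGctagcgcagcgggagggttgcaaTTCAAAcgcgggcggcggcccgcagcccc
Cdc20 promoter, chr4:118437344-118437483, minus strand: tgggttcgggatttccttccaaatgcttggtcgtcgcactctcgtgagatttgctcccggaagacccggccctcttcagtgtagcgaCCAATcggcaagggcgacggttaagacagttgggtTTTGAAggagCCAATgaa
Ccnb1 promoter, chr13:100786487-100786626, minus strand: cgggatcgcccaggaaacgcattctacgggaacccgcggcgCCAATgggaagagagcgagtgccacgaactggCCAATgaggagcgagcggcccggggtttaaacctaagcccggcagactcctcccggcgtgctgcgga
Hmgcs1 promoter, chr13:119690211-119690350, plus strand: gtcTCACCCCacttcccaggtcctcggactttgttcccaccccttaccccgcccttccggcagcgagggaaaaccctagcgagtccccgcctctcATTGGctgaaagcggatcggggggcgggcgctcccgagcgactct

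The promoters of Ube2c and Cdc20 hold a cell cycle homology region with NF-Y boxes beside it, and that of Hmgcs1 a sterol element core with an NF-Y box. In that of Ccnb1 only NF-Y boxes were marked. The search took the exact letters of each motif, so a variant of the cell cycle homology region would not be marked. The cell cycle homology region is known as a binding element of the DREAM complex, which represses mitotic genes in resting cells, and NF-Y is known to activate both mitotic and sterol genes. Across windows from 250 bases before to 50 after the start, TTTGAA on either strand was in 56.6% of the promoters of the mitosis list, in 19.2% of those of the DNA replication list and in 12.1% of those of all genes past the filter. CCAAT was in 66.7%, 55.8% and 37.4% of the same sets, and in 67.9% of the promoters of the cholesterol list. TCACCCC was in 3 of the 28 cholesterol promoters (10.7%), that of Hmgcs1 among them, and in 5.35% of all. These list shares follow from list membership and not from the calls. Among genes lower by size TTTGAA was in 16.2% of promoters, CCAAT in 38.9% and TCACCCC in 5.41%. Among genes higher by size the shares were 11.2%, 33.0% and 7.15%. The core of the GLI motif, CCACCCA, was in 11.2% of the promoters of genes lower by size in GANT61, in 11.3% of those of genes higher by size and in 9.13% of those of genes not called. These shares describe letters in a window and not binding. Symbols matched a promoter for 10985 genes past the filter and for 90 of 108 mitosis genes.

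In the GANT61 library 1308 genes (8.4%) were higher and 2070 (13.3%) lower by size than in DMSO. These shares are the background for the counts of list members given below. From the 25th to the 75th percentile genes lay between -0.35 and 0.26 on the log2 scale, and the median was -0.007. The calls were not even over expression levels. Below a mean of 1 CPM 11.4% of 3015 genes were higher and 21.4% lower, and from 20 to 100 CPM 6.15% of 4908 genes were higher and 5.05% lower. From 100 CPM upward 5.38% of 1934 genes were higher and 5.64% lower. The share over all genes is therefore too high a background for lists of abundant genes. Genes called higher took 6.89% of the counts in GANT61 and 3.54% in DMSO, whereas genes called lower took 3.94% and 7.17%. At 4-fold or more, 119 genes were higher and 315 lower, and at 8-fold 19 and 47. The filter could be passed on 1 column alone. Genes with few counts in 1 library were thus kept, and could be called, through their level in the other.

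**Figure D1:**
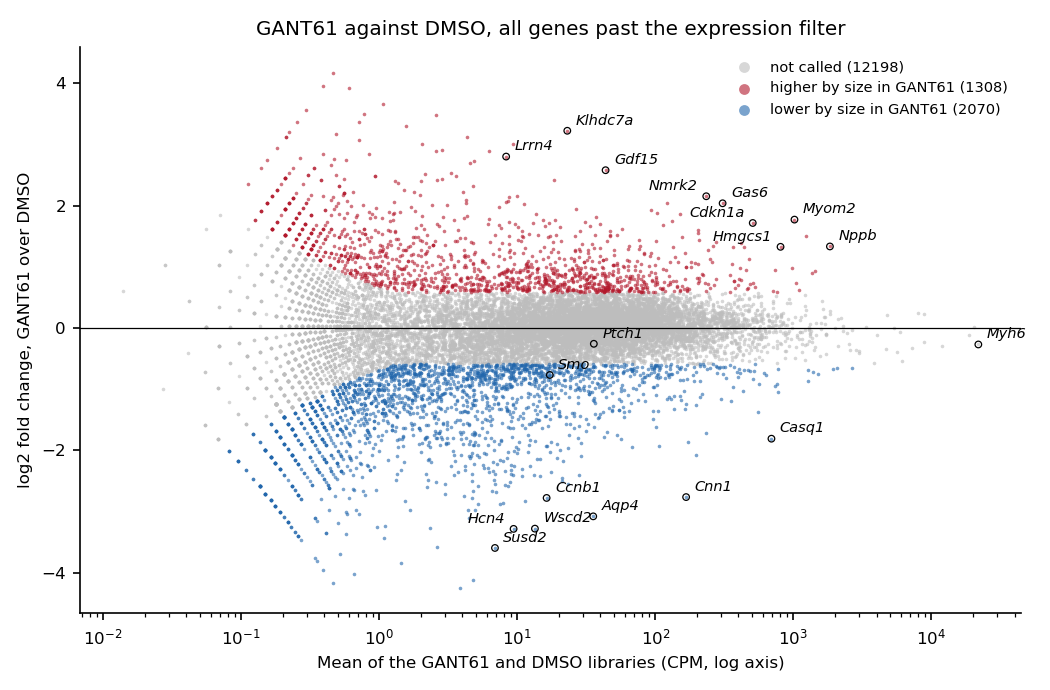
Each point is a gene, placed by its mean CPM over the GANT61 and DMSO libraries (log axis) and its log2 fold change, GANT61 over DMSO. Red points are the 1308 genes higher by size and blue points the 2070 genes lower by size, and named genes are circled. Calls spread over the whole range of expression, and the cardiac myosin gene Myh6 at the far right had a log2 fold change of -0.27.

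Among genes with a mean of at least 5 CPM, the lowest in GANT61 mixed genes of the dividing cell with genes of muscle and membrane. Susd2 (chromosome 10, 75636706 to 75644008, GRCm38), a membrane protein gene, had 36 counts in GANT61 and 470 in DMSO, a log2 fold change of -3.60 (counting interval -4.20 to -3.18). The pacemaker channel gene Hcn4 (chromosome 9, 58823412 to 58863175) had 61 counts in GANT61 and 629 in DMSO. Wscd2 (chromosome 5, 113490333 to 113589725) had 88 counts in GANT61 and 897 in DMSO (log2 fold change -3.28). The water channel gene Aqp4 (chromosome 18, 15389496 to 15410982) had 267 counts in GANT61 and 2337 in DMSO (log2 fold change -3.08). Cnn1 (chromosome 9, 22099216 to 22109630), which encodes the smooth muscle actin-binding protein calponin, was the most abundant of the 15 lowest, with 1532 counts in GANT61 and 10724 in DMSO, a log2 fold change of -2.77 (counting interval -2.85 to -2.69). Tnnt3, the fast skeletal troponin T, and Lrrc3b stood at -2.67 and -2.57. The other 8 of the 15 were Dlgap5, Pimreg, Iqgap3, Ube2c, Ccnb1, Nek2, Birc5 and Nuf2, known from mitosis or from dividing cells, between -2.58 and -2.89.

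The highest genes were of several kinds. Klhdc7a (chromosome 4, 139960220 to 139968026) had 1490 counts in GANT61 and 162 in DMSO, a log2 fold change of 3.23 (counting interval 3.01 to 3.48). Gdf15 (chromosome 8, 70629393 to 70632456), a secreted stress cytokine and a p53 target, had 2675 counts in GANT61 and 458 in DMSO. Nmrk2 (chromosome 10, 81198170 to 81202051), a muscle nicotinamide riboside kinase that feeds NAD synthesis, had 13667 counts in GANT61 and 3154 in DMSO, a log2 fold change of 2.15. Gas6 (chromosome 8, 13465374 to 13494490), which encodes a ligand of the TAM receptor kinases, was the most abundant of the 15 highest, with 17682 counts in GANT61 and 4420 in DMSO (log2 fold change 2.04). Ano3, of the anoctamin family, had 1106 counts in GANT61 and 211 in DMSO (log2 fold change 2.42), and Ddit4l, an inhibitor of mTOR signalling, 512 counts in GANT61 and 118 in DMSO (log2 fold change 2.14). Fnip2, a partner of folliculin, stood at 1.94, the GTPase-activating protein genes Srgap1 and Arap2 at 2.04 and 1.98, and the membrane protease gene St14 at 2.07. Upk1b, Lrrn4 and Msln of the mesothelium, the metallothionein gene Mt2 and the sterol regulator gene Insig1 made up the rest. In each of these 15 genes the cyclopamine library also had more counts than DMSO, from the same DMSO column.

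Called genes of the Hedgehog pathway were few, and mainly receptor genes. Of 27 members past the filter, 1 was higher and 4 lower by size, against 8.4% and 13.3% of all genes. The share of lower ones was thus near that of all genes, and the median was -0.26. Among the ligands Shh had 0 counts in GANT61 and 8 in DMSO (exact Poisson intervals 0 to 3.69 and 3.45 to 15.8). Ihh had 8 counts in GANT61 and 2 in DMSO, and Dhh 14 in GANT61 and 18 in DMSO, so all 3 ligand genes were near the limit of detection, which is 3 counts for a gene at 0.

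Of the receptors and co-receptors, Cdon (chromosome 9, 35421128 to 35507652), a co-receptor that binds the ligand together with Patched, had 3341 counts in GANT61 and 8643 in DMSO, a log2 fold change of -1.33 (counting interval -1.39 to -1.27). Its partner Boc (chromosome 16, 44485049 to 44558897) had 230 counts in GANT61 and 379 in DMSO (-0.68), and Smo (chromosome 6, 29735503 to 29761365), which encodes Smoothened, had 455 counts in GANT61 and 798 in DMSO (-0.77). Gas1, the co-receptor gene of another family, had 849 counts in GANT61 and 1078 in DMSO (-0.30) and was not called. Ptch1 (chromosome 13, 63508328 to 63573598), receptor and GLI target in one, had 1168 counts in GANT61 and 1437 in DMSO, a log2 fold change of -0.26 (counting interval -0.37 to -0.15), below no difference but short of 1.5-fold. Lrp2, a large endocytic receptor that also binds SHH, was the only member higher by size, with 194 counts in GANT61 and 57 in DMSO (log2 fold change 1.77).

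The GLI genes were thinly covered. Gli1 (chromosome 10, 127329882 to 127341974) had 0 counts in GANT61 and 7 in DMSO (exact Poisson intervals 0 to 3.69 and 2.81 to 14.4), and Hhip, another direct target, had 0 in both. Of 15 genes known as Hedgehog targets in other tissues 11 passed the filter, with a median of 0.12, and 1 was higher and 3 lower by size. The higher one was Bcl2, a survival gene (0.62). The lower ones were Foxm1, a factor of the late cell cycle (-2.04), Snai1, a repressor of epithelial genes (-0.68), and Spp1, osteopontin, on 26 counts in GANT61 and 69 in DMSO (-1.30). The cyclin genes Ccnd1 and Ccnd2 and the factor gene Mycn (-0.09) were not called. Gli2 had 14 counts in GANT61 and 16 in DMSO with an interval of -1.30 to 0.98, and Gli3 had 150 counts in GANT61 and 205 in DMSO, a log2 fold change of -0.41 (counting interval -0.72 to -0.10). Gpr161, a ciliary receptor that holds the pathway off, had 148 counts in GANT61 and 272 in DMSO (-0.83). Sufu, the GLI-binding inhibitor, was at -0.28 and Kif7 at -0.31. The 6 kinase and ligase genes that process GLI proteins had a median of 0.09, with 0 called. Among 40 genes of the primary cilium 0 were higher and 6 lower by size (median -0.28), a share of lower genes near the 13.3% over all genes. The 6 were Nphp4 at -1.07, Wdr19 at -0.81, Bbs9 at -0.65, Ift46 at -0.63, Tctn1 at -0.61 and Dync2h1 at -0.60.

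**Figure D2:**
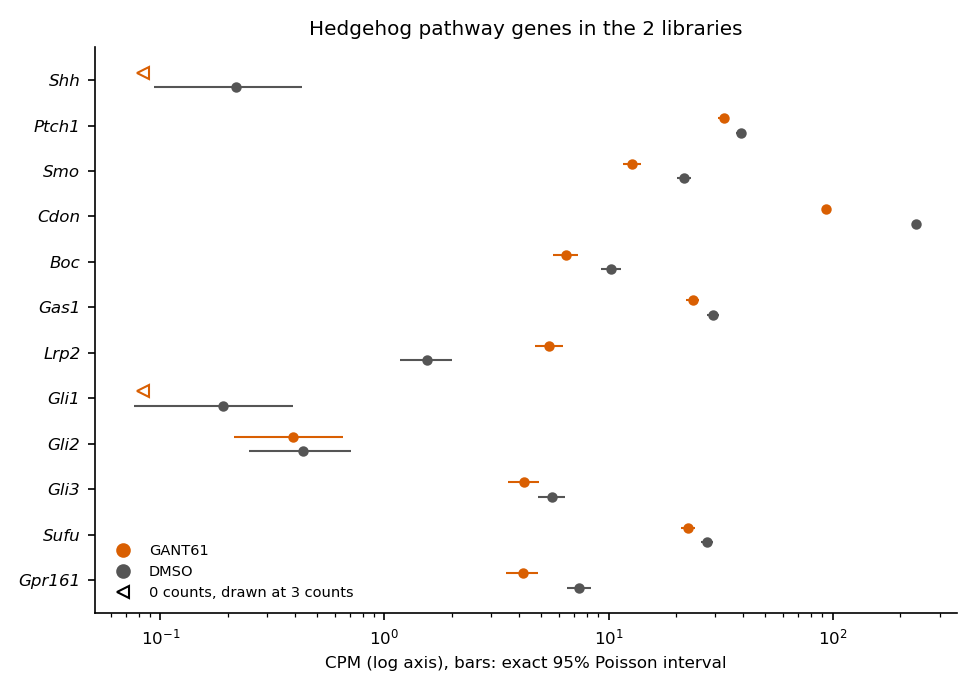
Level of Hedgehog pathway genes in CPM (log axis), GANT61 in orange above DMSO in grey for each gene, with exact 95% Poisson intervals. Triangles stand for 0 counts and are drawn at 3 counts. Smo, Cdon, Boc and Gpr161 lie to the left in GANT61 with intervals that do not overlap those of DMSO, Lrp2 lies to the right, and Shh, Gli1 and Gli2 rest on 16 counts or fewer in each library.

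Mitotic genes were lower in GANT61 in nearly every role. Of 108 members past the filter 0 were higher and 89 lower by size, with a median log2 fold change of -1.69 against -0.007 for all genes. Cyclins, kinases and phosphatases had 16 of 18 lower (median -1.95). Ccnb1 (chromosome 13, 100778650 to 100786570), cyclin B1, had 147 counts in GANT61 and 1049 in DMSO (-2.78), and 42.1% of its 50-base windows recur in other annotated genes, which leaves its level uncertain. Ccna2, cyclin A2, had 227 counts in GANT61 and 1326 in DMSO (log2 fold change -2.50), and Plk1, the polo kinase of mitotic entry and exit, 92 counts in GANT61 and 553 in DMSO (log2 fold change -2.52). The phosphatase gene Cdc25c had 14 counts in GANT61 and 156 in DMSO, whereas Cdc25a (-0.15) and the inhibitory kinase gene Wee1 (-0.17) were the 2 members not called.

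Genes that build the spindle and the kinetochore stood lower together. All 12 mitotic kinesin genes were lower by size (median -1.87), Kif4 with 71 counts in GANT61 and 437 in DMSO (log2 fold change -2.55) and Kif11, which pushes the spindle poles apart, with 117 counts in GANT61 and 580 in DMSO (log2 fold change -2.25). Of 15 kinesin genes of cargo transport 2 were higher and 0 lower (median 0.12), Kif1a with 2498 counts in GANT61 and 900 in DMSO (log2 fold change 1.51) and Kif21a at 0.81. Kinetochore and centromere genes had 23 of 26 lower, among them Ndc80 and Nuf2 of the microtubule-binding complex at -2.98 and -2.58. The 3 not called were Cenpa (-0.23), Dsn1 (0.16) and Zwint (0.28). Spindle assembly genes had 11 of 12 lower and cytokinesis genes 7 of 7, with Prc1, the midzone bundler, at -2.54 and Anln, anillin, at -1.69. Ckap5, a microtubule polymerase gene also used outside mitosis, was at -0.02 with 3103 counts in GANT61 and 3245 in DMSO.

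The anaphase promoting complex divided by the role of its genes. Cdc20 (chromosome 4, 118432901 to 118437352), its mitotic activator, had 168 counts in GANT61 and 707 in DMSO (log2 fold change -2.02), Ube2c (chromosome 2, 164769898 to 164778822), its ubiquitin-conjugating enzyme, 100 counts in GANT61 and 739 in DMSO (log2 fold change -2.82), and Fbxo5, its inhibitor, 52 counts in GANT61 and 160 in DMSO (log2 fold change -1.55). None of the 6 core subunit genes measured was called, between -0.41 for Cdc27 and 0.34 for Cdc23. Condensin, cohesin and separase genes had 9 of 13 lower, with Esco2 at -2.48 and Top2a, the topoisomerase of dividing cells, with 390 counts in GANT61 and 1725 in DMSO. Smc4 and Ncapd2, at -0.51 each, were not called.

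DNA replication genes stood lower as well, with a median of -0.84. By size 35 of the 52 past the filter were lower and 0 higher. Licensing and helicase genes had 16 of 20 lower, led by Mcm5 with 182 counts in GANT61 and 829 in DMSO (log2 fold change -2.13). Chromatin assembly and DNA methylation genes had 7 of 7 lower, with Chaf1a at -1.64 and Uhrf1 at -1.35. Of 19 polymerase, clamp and ligase genes 8 were lower, with Pole2 at -1.76 and Lig1 at -1.63, and the ribonucleotide reductase gene Rrm2 had 406 counts in GANT61 and 1238 in DMSO (log2 fold change -1.56). Genes of homologous recombination had 12 of 12 lower and Fanconi genes 5 of 5, with Rad54l at 13 counts in GANT61 and 181 in DMSO and Fanca at -2.07. Of the checkpoint kinases Chek1 and Chek2 were both at -1.01, whereas Atr (-0.08) and Atm (0.23) were not called.

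Regulators of the cycle divided within families. E2f1, E2f2, E2f7 and E2f8, of which E2F1 activates and E2F7 and E2F8 repress, were lower, between -1.35 and -1.11, while E2f3, E2f4 and E2f6 lay between 0.30 and 0.37. Mybl2 and Foxm1, which drive late cell cycle genes, were at -2.17 and -2.04, and Rb1, the retinoblastoma gene, was at 0.61. The D cyclin genes Ccnd1 (0.13) and Ccnd2 (0.12) were not called, and cyclin E2, Ccne2, had 68 counts in GANT61 and 303 in DMSO (log2 fold change -2.08). Cdkn1a, the p21 inhibitor, had 27868 counts in GANT61 and 8708 in DMSO (log2 fold change 1.72) and Cdkn2b, the p15 inhibitor, 565 counts in GANT61 and 291 in DMSO (log2 fold change 0.99), whereas Cdkn2c and Cdkn2d were at -1.44 and -0.62. The summed level of fibroblast markers was also lower in GANT61, as given above, and its part in these differences was not tested. In the cyclopamine library Ccna2 had 436 counts, Kif11 219 and Mcm5 334, between the GANT61 and DMSO values.

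**Figure D3:**
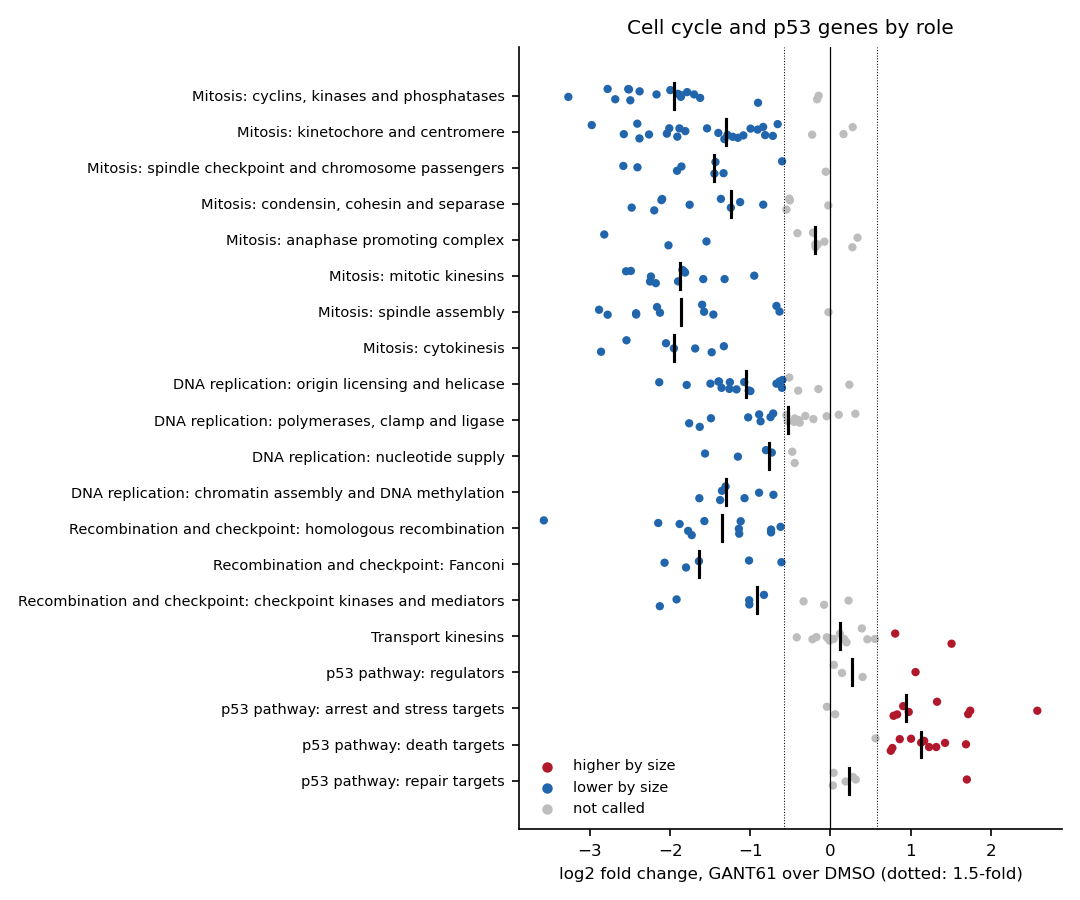
Log2 fold change, GANT61 over DMSO, of each gene past the filter (point) by role, with the median of the role as a black bar and 1.5-fold as dotted lines. Mitotic roles have medians from -1.95 to -1.24 except the anaphase promoting complex at -0.19, transport kinesins lie about 0, and p53 arrest and death targets lie to the right with medians of 0.94 and 1.13.

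Target genes of p53 were higher in GANT61, most of the death and arrest genes and 1 of the repair genes. The whole list of 31 had a median of 0.87, and 20 passed the size rule upward and 0 downward. Death genes had 10 of 11 higher, among them Eda2r with 6247 counts in GANT61 and 1988 in DMSO (log2 fold change 1.69), Fas with 556 counts in GANT61 and 211 in DMSO (log2 fold change 1.43) and Bax, a pore former of mitochondria, with 2837 counts in GANT61 and 1452 in DMSO (log2 fold change 1.01). Bbc3, which encodes PUMA, was at 0.56 and was not called. Arrest and stress genes had 8 of 10 higher, with Btg2 at 1.74 and Plk2 at 1.33. Of 6 repair genes only Polk, a translesion polymerase, was higher (1.70), and Ddb2 and Xpc were at 0.04 and 0.03. Mdm2, which degrades p53 and is its target, had 9338 counts in GANT61 and 4600 in DMSO (log2 fold change 1.06), and Trp53 itself 1667 counts in GANT61 and 1297 in DMSO (log2 fold change 0.40).

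The BCL2 family went both ways. Of the survival genes Bcl2l1 (0.80) and Bcl2 (0.62) were higher and Mcl1 (0.11) was not called. Bid, the link from death receptors to mitochondria, had 345 counts in GANT61 and 102 in DMSO (log2 fold change 1.78). Bok (-1.15), Bmf (-2.02), Bnip3 (-0.80) and Bnip3l (-0.62) were lower, the last pair being mitophagy receptors.

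Cholesterol genes were higher in GANT61, 23 of 30 by size with 0 lower and a median of 1.06. Of 9 mevalonate genes 8 were higher, Hmgcs1 (chromosome 13, 119690379 to 119708260), the synthase at the head of the branch, with 41311 counts in GANT61 and 16926 in DMSO, a log2 fold change of 1.33 (counting interval 1.30 to 1.35). Squalene and sterol steps had 11 of 12 higher, with Fdft1, squalene synthase, at 1.93, and Ebp was at 0.11. Of 9 uptake and control genes 4 were higher, with Insig1 at 2.05. The genes of intracellular cholesterol export and of the clearance receptor, Npc1 (0.01) and Lrp1 (0.04), were not called. The efflux genes Abca1, with 257 counts in GANT61 and 1163 in DMSO (log2 fold change -2.13), and Abcg1 (-1.63), both targets of the sterol receptor LXR, were lower. The list of LXR and sterol efflux genes as a whole had 3 of 9 lower and 0 higher by size. Its median was -0.05, and 4 of its members lay above 0. The cyclopamine library, at a dose in another unit, had 63090 counts of Hmgcs1 and 209 of Abca1, set beside the same DMSO values.

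Fatty acid synthesis genes had 7 of 14 higher and 1 lower, Scd1, the stearoyl-CoA desaturase, with 8243 counts in GANT61 and 3032 in DMSO (log2 fold change 1.48) and Thrsp, a lipogenic regulator, at -1.83. Fatty acid oxidation had 6 of 35 higher and 1 lower. Those higher were mostly regulators and uptake genes, Ppara (1.19), Ppargc1a (0.88), Lpl (0.62), Fabp3 (0.59), Plin5 and Cpt1a (0.71). Fabp3 shares 29.2% of its 50-base windows with other genes and Plin5 rests on 27 counts in GANT61 and 10 in DMSO. The lower gene was Cpt2 (-0.70), a carnitine transferase of the inner mitochondrial membrane, and of the listed enzymes of the oxidation spiral itself 0 were called.

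Few respiratory genes were called. Of 80 nuclear genes of oxidative phosphorylation 1 was higher, Cox8b (0.69), and 0 lower by size, and the median was 0.04. These genes summed to 28870 CPM in GANT61 and 28280 CPM in DMSO. Among all genes with a mean of 100 CPM or more, 5.38% were higher and 5.64% lower. All 37 complex I genes lay between -0.19 and 0.31. Ribosomal protein genes had 4 of 162 higher and 2 lower, and aminoacyl tRNA synthetases 0 of 37 higher and 1 lower, Ears2 with 764 counts in GANT61 and 1601 in DMSO (log2 fold change -1.02). Glycolysis and glucose uptake had 2 of 21 higher, a share near the 8.4% of all genes. They were hexokinase 2 (Hk2, 0.78) and Pfkfb2 (0.73), which shares 26.1% of its 50-base windows with other annotated genes. The lactate exporter gene Slc16a3 was lower, with 1776 counts in GANT61 and 5634 in DMSO (log2 fold change -1.62), and Slc16a1, its relative, was at -0.24.

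Energy buffer genes differed one by one. Ckm, the muscle creatine kinase, had 7694 counts in GANT61 and 18158 in DMSO (log2 fold change -1.20), its mitochondrial relative Ckmt2 2223 counts in GANT61 and 1509 in DMSO (log2 fold change 0.60), and the creatine transporter gene Slc6a8 12470 counts in GANT61 and 7386 in DMSO (log2 fold change 0.80). The myoglobin gene Mb had 34699 counts in GANT61 and 18445 in DMSO (log2 fold change 0.95). Of the NAD salvage genes Nampt, the rate-limiting enzyme from nicotinamide, had 1263 counts in GANT61 and 607 in DMSO (log2 fold change 1.09) and Naprt, which starts from nicotinic acid, 158 counts in GANT61 and 248 in DMSO (log2 fold change -0.60). Nmrk1, the widely expressed relative of Nmrk2, was at 0.01.

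**Figure D4:**
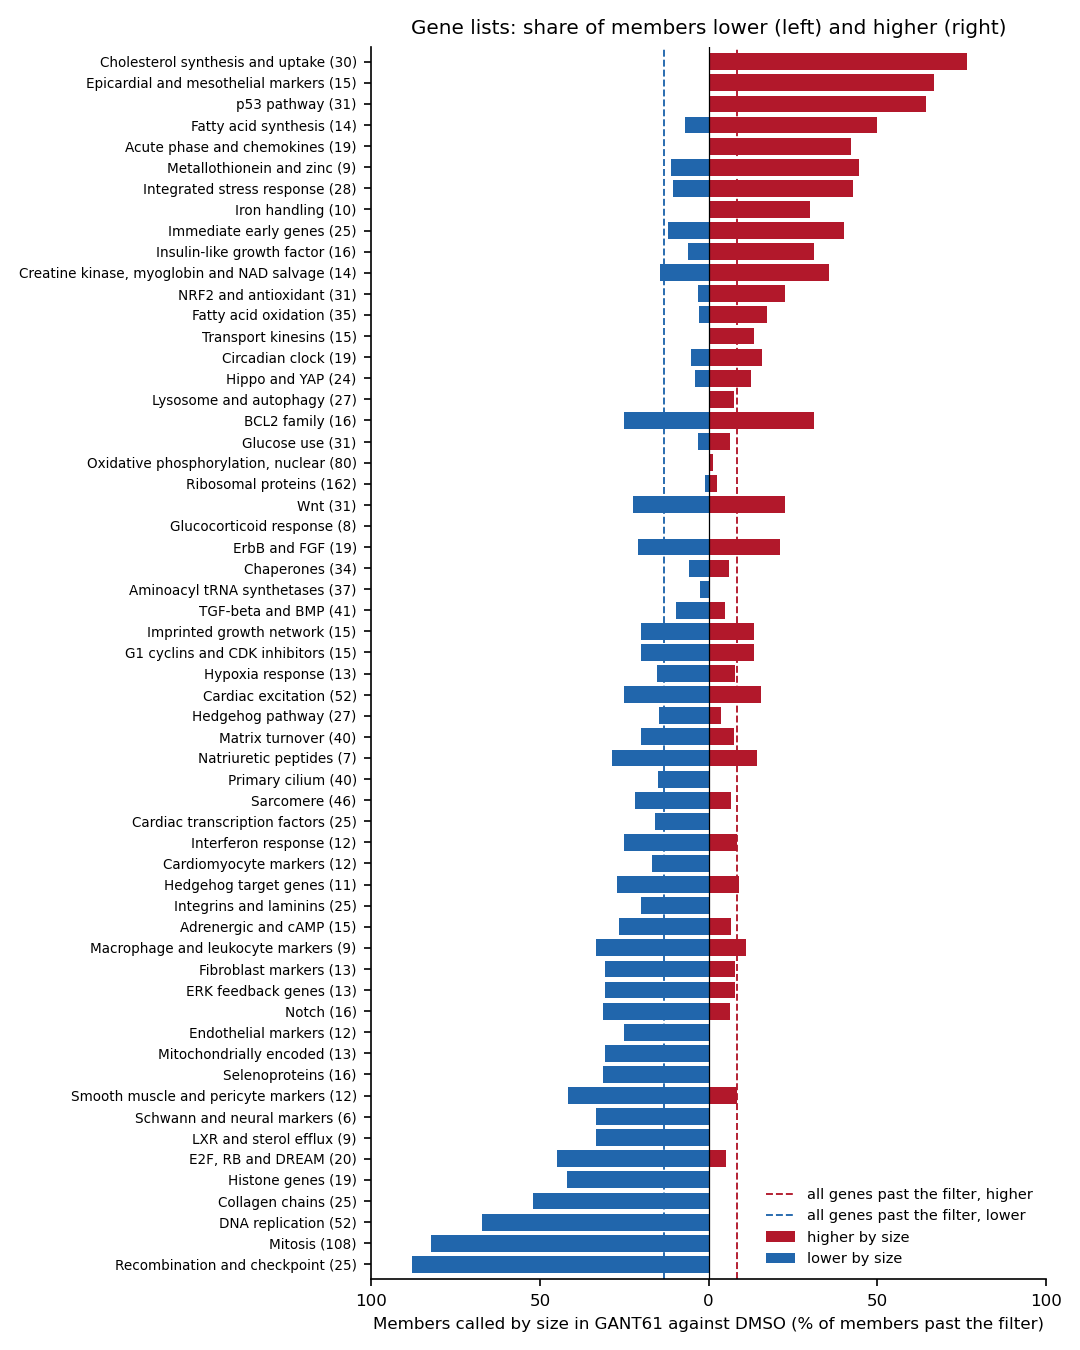
Share of the members past the filter (number in brackets) that were lower (left, blue) or higher (right, red) by size in GANT61 against DMSO, for the gene lists with at least 5 such members. Dashed lines mark the shares over all genes, 8.4% higher and 13.3% lower. Cholesterol synthesis, epicardial markers and p53 targets lie furthest to the right, and recombination, mitosis and DNA replication furthest to the left.

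Genes of cardiac excitation were called in both directions. Of 52 past the filter 8 were higher and 13 lower by size, with a median of -0.19. Pacemaker and calcium channel genes had 1 of 10 higher and 4 lower. Among them Hcn4 (chromosome 9, 58823412 to 58863175) had 61 counts in GANT61 and 629 in DMSO, a log2 fold change of -3.29 (counting interval -3.73 to -2.94). T-type calcium channel genes were lower, Cacna1g with 3068 counts in GANT61 and 6837 in DMSO (log2 fold change -1.11) and Cacna1h with 107 counts in GANT61 and 250 in DMSO (log2 fold change -1.17). The L-type channel gene of working muscle, Cacna1c, was at -0.32 and Hcn2 at 0.15, and neither was called. Cacna1d, an L-type gene known from pacemaker cells, was the 1 higher, on 19 counts in GANT61 and 6 in DMSO (1.43). Gjc1, the connexin 45 of conduction tissue, had 950 counts in GANT61 and 2422 in DMSO (log2 fold change -1.31), whereas the working myocardial connexin gene Gja1 was at 0.28.

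Transcription factors of the heart had 0 of 25 higher and 4 lower, against 8.4% and 13.3% of all genes, so the share of lower ones was near that of all genes. Tbx3 and Tbx2, which are known to hold conduction tissue in its pacemaking state, had 122 and 18 counts in GANT61 and 282 and 42 in DMSO (-1.16 and -1.10). Tbx20 had 32147 counts in GANT61 and 60459 in DMSO (log2 fold change -0.87) and Hopx 6502 counts in GANT61 and 10690 in DMSO (log2 fold change -0.68). Nkx2-5 (0.00), Tbx5 (0.06) and Gata4 (0.48) were not called.

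Potassium channel genes went in both directions, 7 of 17 higher and 5 lower. Kcnip2, a partner of the transient outward channel, had 413 counts in GANT61 and 135 in DMSO (log2 fold change 1.64), and Kcnk3, the background channel TASK-1, 1087 counts in GANT61 and 416 in DMSO (log2 fold change 1.42). Abcc8 (1.08), Kcne1 (0.82) and Kcnj5 (0.80) were also higher. Kcnh2, the rapid delayed rectifier, had 2676 counts in GANT61 and 6147 in DMSO (log2 fold change -1.16), and Kcnj2 and Kcnq1 stood at -0.83 and -0.59. Kcnj8, a pore subunit of ATP-sensitive channels, was the lowest of the role (-1.74), on 3 counts in GANT61 and 15 in DMSO. In cyclopamine Kcnip2 had 425 counts, about as in GANT61, and Kcnk3 423, about as in DMSO.

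**Figure D5:**
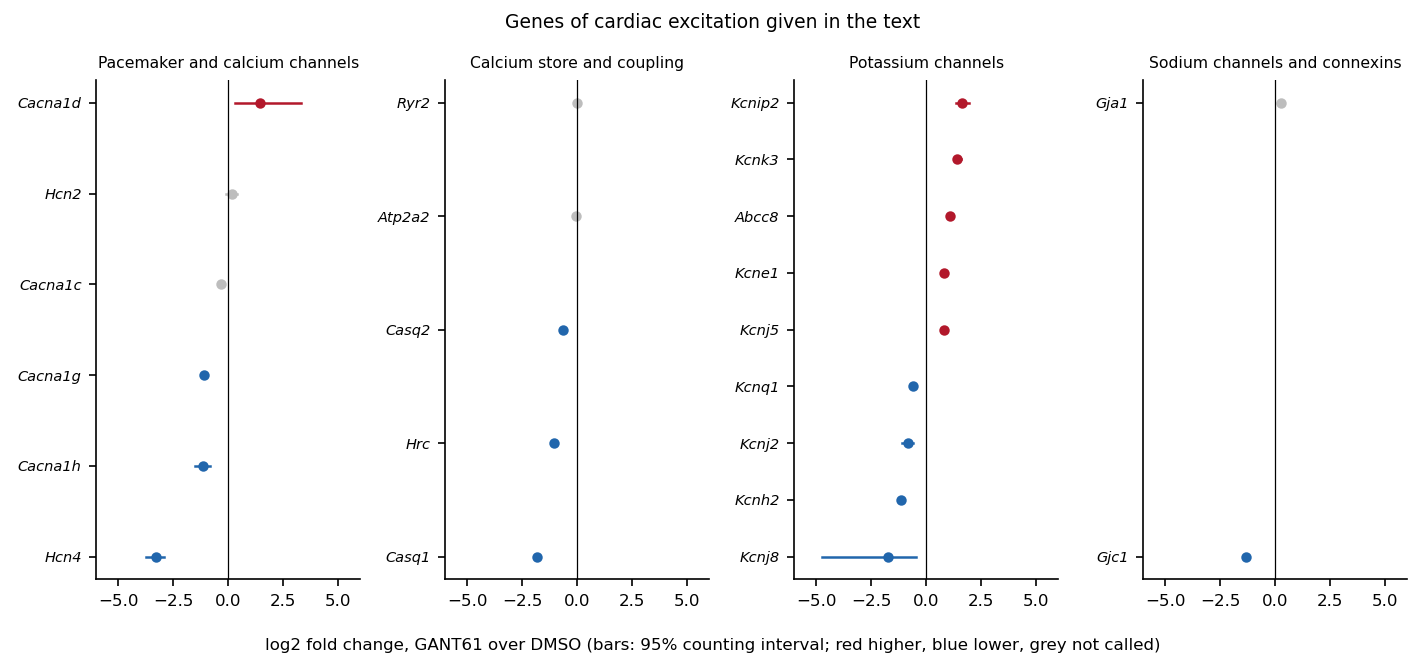
Log2 fold change, GANT61 over DMSO, of the genes of cardiac excitation given in the text, with their 95% counting intervals, ordered within each role (red higher by size, blue lower, grey not called). Of the genes shown, Hcn4 lies lowest among pacemaker and calcium channels, Casq1 among store genes and Gjc1 among connexins, and potassium channel genes run from -1.74 for Kcnj8 to 1.64 for Kcnip2.

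Calcium store genes had 3 of 18 lower and 0 higher, against 13.3% and 8.4% of all genes. Casq1, the calcium buffer known from skeletal muscle, had 11015 counts in GANT61 and 39720 in DMSO, a log2 fold change of -1.81 (counting interval -1.84 to -1.78), and the cardiac form Casq2 58023 counts in GANT61 and 93795 in DMSO (log2 fold change -0.65). Hrc, a histidine-rich calcium binder, was also lower (-1.03). The calcium release channel gene Ryr2 (-0.02) and the pump gene Atp2a2 (-0.06), with 56122 counts in GANT61 and 58422 in DMSO for the first and 206960 counts in GANT61 and 221736 in DMSO for the second, were not called. The adrenergic list had 1 of 15 higher and 4 lower by size. Rgs2, a brake on G protein signals, had 37 counts in GANT61 and 266 in DMSO (log2 fold change -2.74) and the cyclase gene Adcy5 3523 counts in GANT61 and 8592 in DMSO (log2 fold change -1.25). The phosphodiesterase genes Pde4d (-0.88) and Pde3a (-0.64) were the other 2 lower, and Adrb1 (-0.46) was not called.

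Called contractile genes included isoforms known from skeletal or early muscle. By size 3 of 46 sarcomere genes were higher and 10 lower, against 8.4% and 13.3% of all genes, with a median of -0.14. Among the lowest were Tnnt3 with 63 counts in GANT61 and 422 in DMSO, Tnnt1 with 202 counts in GANT61 and 1074 in DMSO (log2 fold change -2.36) and Tnni1 with 3860 counts in GANT61 and 13043 in DMSO (log2 fold change -1.72). The cardiac isoform genes Tnnt2 (-0.32) and Tnni3 (-0.05) were not called, nor were the myosin genes Myh6 (-0.27) and Myh7 (0.31). The light chain genes Myl4, Myl7 and Myl3 were lower, at -0.97, -0.72 and -0.67. Myom2, an M-band gene of mature muscle, had 56383 counts in GANT61 and 16970 in DMSO (log2 fold change 1.77), while Myom1 was at -0.45. At the Z-disc Tcap, telethonin, had 889 counts in GANT61 and 3233 in DMSO (log2 fold change -1.82), Fhl2 11021 counts in GANT61 and 29295 in DMSO (log2 fold change -1.37) and Csrp3, the muscle LIM protein, 63043 counts in GANT61 and 34904 in DMSO (log2 fold change 0.89). Nppb, the brain natriuretic peptide gene, had 94256 counts in GANT61 and 38459 in DMSO (log2 fold change 1.33), and Nppa 383420 counts in GANT61 and 480614 in DMSO (log2 fold change -0.29). Furin, whose product cuts natriuretic and other precursors, was lower with 4744 counts in GANT61 and 10632 in DMSO (log2 fold change -1.12).

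Stress pathways divided by branch. In the integrated stress response 9 of 13 factor and kinase genes were higher, with Atf3 at 1.73, Ddit3, which encodes CHOP, at 1.51, and Atf4 at 0.70. Of 12 amino acid supply genes, many of them ATF4 targets, 1 was higher, Slc7a11 (1.17), and 3 were lower, Psat1 (-0.73), Aldh1l2 (-0.61) and Psph (-0.60), and Asns was at 0.06. The list of endoplasmic reticulum chaperones and their regulators had 0 of 19 higher and 2 lower, the factor gene Xbp1 (-0.76) and the calreticulin gene Calr (-0.64). The heat shock list had 2 of 15 higher. Over all genes past the filter 8.4% were higher and 13.3% lower.

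Of the NRF2 system 6 of 21 genes were higher, Hmox1, heme oxygenase, with 11031 counts in GANT61 and 3742 in DMSO (log2 fold change 1.60), Txnrd1, thioredoxin reductase, with 17438 counts in GANT61 and 8691 in DMSO (log2 fold change 1.04), and Osgin1 with 937 counts in GANT61 and 290 in DMSO (log2 fold change 1.73). Nqo1 (0.27) and Gclc (0.44), targets of the same factor, were not called. In cyclopamine Osgin1 had 316 counts and Txnrd1 9305, close to the DMSO values. Selenoprotein genes had 5 of 16 lower and 0 higher, Selenop, the secreted selenium carrier, with 2657 counts in GANT61 and 9938 in DMSO (log2 fold change -1.86), Selenow at -1.08 and Selenom at -1.07. Among metal genes Mt1 and Mt2 had 1384 and 483 counts in GANT61, against 503 and 117 in DMSO, and the zinc transporter gene Slc30a2 was lower with 53 counts in GANT61 and 293 in DMSO (log2 fold change -2.38).

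Immediate early genes had 10 of 25 higher and 3 lower. Nr4a3 had 140 counts in GANT61 and 34 in DMSO (log2 fold change 2.02), Egr1 8231 counts in GANT61 and 3601 in DMSO (log2 fold change 1.23) and Myc 1826 counts in GANT61 and 755 in DMSO (log2 fold change 1.31). Egr3, Nr4a2 and Ier3 were lower, between -0.78 and -0.67. Feedback genes of the ERK pathway had 4 of 13 lower, the factor gene Etv1 with 84 counts in GANT61 and 403 in DMSO (log2 fold change -2.20) and Spry4 at -0.73, and 1 higher, Dusp4 (0.70). The glucocorticoid list had 0 of 8 called in either direction.

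Among 25 collagen chain genes 13 were lower by size and 0 higher, with a median of -0.61. The chains of collagen VI stood lower together, Col6a1 with 786 counts in GANT61 and 1851 in DMSO (log2 fold change -1.19), Col6a2 with 1648 counts in GANT61 and 3835 in DMSO (log2 fold change -1.18) and Col6a3 with 323 counts in GANT61 and 932 in DMSO (log2 fold change -1.48). Col1a1 and Col1a2 of the type I fibril were at -0.70 and -0.61, Col3a1 of type III at 0.05, and Col4a1, the abundant basement membrane chain, at -0.26. Eln, elastin, had 984 counts in GANT61 and 2560 in DMSO (log2 fold change -1.34) and the protease gene Mmp23 194 counts in GANT61 and 677 in DMSO (log2 fold change -1.75). Dcn, decorin, was higher with 460 counts in GANT61 and 229 in DMSO (log2 fold change 1.04), as were Lox (0.64) and Serpine2 (0.97). Of the 13 fibroblast markers past the filter 1 was higher, Dcn, and 4 lower, Thy1, Pdgfrl, Col1a1 and Col1a2. Thy1, which encodes CD90, had 1207 counts in GANT61 and 3050 in DMSO (log2 fold change -1.30), and Pdgfra (-0.07) and Tcf21 (0.50) were not called. The part of fibroblast number in the matrix values was not tested.

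Markers of the epicardium and mesothelium had 10 of 15 higher and 0 lower (median 1.04 on the log2 scale). Their median level per kilobase was 2.48 CPM in GANT61 and 0.619 CPM in DMSO, whereas their sum, which the most abundant genes set, was 378 CPM in GANT61 and 294.8 CPM in DMSO. Lrrn4 had 521 counts in GANT61 and 75 in DMSO (log2 fold change 2.80), Upk3b 303 counts in GANT61 and 45 in DMSO (log2 fold change 2.74) and Bnc1 202 counts in GANT61 and 34 in DMSO (log2 fold change 2.54). The more abundant Krt19 (0.48), Krt18 (-0.15) and Tbx18 (0.29) were not called. Smooth muscle and pericyte markers summed to 4369 CPM in GANT61 and 6375 CPM in DMSO. Of 12 past the filter 1 was higher and 5 lower by size, from -2.77 to 1.21 with a median of -0.51. Acta2, smooth muscle actin, was at -0.69 and Smtn at -0.89, and Myh11 at -0.17 on 18 counts in GANT61 and 21 in DMSO.

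Genes of other developmental pathways were called in both directions. Tgfb3 had 12276 counts in GANT61 and 5782 in DMSO (log2 fold change 1.13), while Tgfb1 (-0.20) and Tgfb2 (-0.21) were not called, and Fstl1, a follistatin relative, had 13026 counts in GANT61 and 23967 in DMSO (log2 fold change -0.84). Among Notch genes the target genes Hey1 (1 count in GANT61 and 17 in DMSO), Heyl (-1.67) and Nrarp (-1.19) were lower, Hes1 (-0.32) was not called and Notch3 was higher (1.21). Wnt genes had 7 of 31 higher and 7 lower, with Wnt7a at 1.70 and the inhibitor gene Nkd2 with 239 counts in GANT61 and 941 in DMSO (log2 fold change -1.93). Nrg1, neuregulin, had 1065 counts in GANT61 and 501 in DMSO (log2 fold change 1.12), and its receptor genes Erbb2 and Erbb4 were at -0.69 and 0.32. Peg3, an imprinted zinc finger gene, had 12157 counts in GANT61 and 5175 in DMSO (log2 fold change 1.27), and the imprinted RNA genes Meg3 and H19 stood at -1.14 and -0.73.

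Inflammatory and growth factor lists held genes with few counts beside abundant ones. Of 19 acute phase and chemokine genes past the filter 8 were higher and 0 lower by size. Ccl2, a monocyte attractant, had 447 counts in GANT61 and 176 in DMSO (log2 fold change 1.38), and Ptgs2, the inducible cyclooxygenase, 3303 counts in GANT61 and 2059 in DMSO (log2 fold change 0.72). The complement gene C3 rests on 72 counts in GANT61 and 4 in DMSO, and Saa3 on 15 in GANT61 and 1 in DMSO. The inhibitor gene of NF-kB, Nfkbia (0.27), was not called. Interferon genes had 1 of 12 higher and 3 lower, all on few counts or short of 1 log2 unit: Ifit3 had 49 counts in GANT61 and 12 in DMSO, Isg15 had 0 in GANT61 and 19 in DMSO, Irf7 had 6 in GANT61 and 18 in DMSO, and Irf1 had 109 in GANT61 and 173 in DMSO. The count of Ifit3 is uncertain, since 51.2% of its 50-base windows recur elsewhere in the annotation.

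Of 16 insulin-like growth factor genes 5 were higher and 1 lower. The binding protein genes Igfbp4 and Igfbp3 stood at 0.92 and 0.83, and the receptor gene Igf2r, which clears the ligand, had 30811 counts in GANT61 and 20924 in DMSO (log2 fold change 0.60). Hippo pathway targets had 3 of 10 higher and 0 lower, with Ccn1 at 0.76, while Ccn2 (0.19) and Yap1 (0.07) were not called. Integrin and laminin genes had 0 of 25 higher and 5 lower. Lama4, a laminin chain of vessel and muscle basement membranes, had 3410 counts in GANT61 and 7540 in DMSO (log2 fold change -1.10), and Itgb3, Itga8 and Lamb3 lay between -1.32 and -1.27.

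Clock genes had 3 of 19 higher and 1 lower, Hlf with 148 counts in GANT61 and 473 in DMSO (log2 fold change -1.62), whereas the core genes Clock (0.31) and Arntl (-0.11) were not called. Lysosome and autophagy genes had 2 of 27 higher, a share near the 8.4% of all genes. They were Gpnmb with 1207 counts in GANT61 and 557 in DMSO (log2 fold change 1.15) and the autophagy receptor gene Sqstm1 with 21715 counts in GANT61 and 13496 in DMSO (log2 fold change 0.73). In the hypoxia list Hif1a was higher (0.67) and its targets Egln3 (-0.60) and Bnip3 were lower, and Vegfa (0.23) was not called. Of 19 histone genes past the filter 8 were lower and 0 higher. Of 64 replicative histone genes 10 passed the filter.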

How the data were processed

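Messenger RNA of cultured mouse cardiomyocytes was measured in 6 labelled samples, 2 per group. The values are raw read counts per gene in 3 columns, 1 per group, as the authors deposited them. Which replicate a column holds, or whether it is a pool, is not given in the sources used here. The build GRCm38 and the tools HISAT2 2.1.0, featureCounts, FastQC and Trimmomatic 0.33 are named per the submitters' processing notes. No source used here gives the annotation or the strand setting, so overlapping and antisense genes may share reads. The authors' deposited lists of higher and lower genes hold the same counts, and their mean signal over both inhibitor columns served only to describe those lists.

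Genes were kept with filterByExpr and scaled by TMM over the 3 columns (edgeR 4.0.16, R 4.3.3), giving 15576 genes. Each column stood as its own group in the filter, so a gene could pass on its level in 1 column alone. Log2 fold changes used a prior count of 2. Counting intervals are exact conditional binomial intervals at 95% (Clopper-Pearson, scipy 1.17.1), and a gene at 0 was read at a floor of 3 counts. A call needs 1.5-fold and an interval that excludes no difference. With 1 column per group no test was possible. The call rule was tested on simulated data. Positions come from GENCODE mouse release 21, matched by gene ID for 55227 of 55487 genes. Promoters were matched by symbol to RefSeq.

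The comparison, the 59 gene lists and their members were chosen with earlier results of these data known. Of 1628 genes asked for, 1488 passed the filter, and 174 were higher and 317 lower by size. Genes named are Gli1, Gli2, Gli3, Ptch1, Smo, Hhip and Shh, the 15 highest and 15 lowest called with a mean of at least 5 CPM (uninformative symbols passed over), and per role up to 4 called members by fold and 3 by depth. Any further gene was named once its values had been seen, and some genes that the rule or the lists hold are not reported here. Alternatives were other scalings, filters, folds, intervals and prior counts.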

Additional observations from a re-analysis of the deposited data

How the results depend on the processing

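Calls depended on the fold and on the filter, and little on scaling. At 2-fold 629 genes were higher and 1191 lower, and of the list members 88 were higher and 202 lower. At 1.2-fold 3040 and 3576 genes were called, with 337 and 493 list members. With at least 5 CPM in both libraries 551 genes were higher and 711 lower, and 154 list members were lower. Of the main calls 605 higher and 647 lower genes passed that filter, and 551 and 647 were called in both settings. Library size only, median-of-ratios size factors, the GANT61 and DMSO columns alone, no filter, a 99% interval, a prior count of 0.5 and leaving out mitochondrially encoded genes kept all 4 counts within 1.5 times. None of these settings, nor the stricter filter, turned the direction of a called named gene. The scaling alternatives moved log2 fold changes by at most 0.027, the stricter filter by at most 0.031 and the smaller prior count by up to 1.89 for a gene with few counts. No paired analysis was possible because the table has 1 column per group with no replicate number, and for the same reason no replicate could be left out. Depth limits Gli1, Shh, Hhip and other genes near 3 counts.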

Other observations

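Several genes outside the lists were read in 1 library and absent from the other. C1s1, a complement protease gene, had 28 counts in GANT61 and 0 in DMSO. With the 0 read at a floor of 3 counts it was 9.6-fold higher, a value that leaves out the counting error of the larger count. Ankle1, Tril and Vtcn1 had 0 counts in GANT61 and 34, 26 and 25 in DMSO, 11.0-fold, 8.43-fold and 8.1-fold lower when read the same way. In cyclopamine the same genes had 2, 18, 15 and 7 counts.

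By annotated class, 12.0% of long intergenic RNA genes were higher in GANT61 and 26.5% lower by size. Of protein-coding genes 7.95% were higher and 12.6% lower, and of antisense genes 11.5% were higher and 21.2% lower. Calls were also more frequent at low expression, as given above, and the classes were not matched for level. Antisense values can hold reads of the opposite strand, since the strand setting is not given.

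Of 13 mitochondrially encoded protein genes 0 were higher and 4 lower by size, mt-Atp8, mt-Nd4l, mt-Co3 and mt-Co2. Each of these had at most 855 counts, against 119919 or more in GANT61 for mt-Nd1, mt-Nd2, mt-Nd4, mt-Nd5, mt-Co1 and mt-Cytb, none of which was called. The genes mt-Nd4l, mt-Co3 and mt-Co2 share 98.8% or more of their 50-base windows with other annotated genes, so their levels are uncertain.

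The authors' deposited table of higher genes has 6612 rows and that of lower genes 6461, taken on the mean of both inhibitor columns against DMSO without scaling for depth. The first holds 1290 of the 1308 genes higher by size in GANT61 (98.6% of them and 19.5% of its rows). The second holds 1925 of the 2070 lower by size (93.0% of them and 29.8% of its rows). Of the 15576 genes past the filter, 3256 are in the first and 3552 in the second. The GANT61 column is part of the authors' mean and the DMSO column is the same. A large overlap therefore follows from shared counts and is no separate check of the calls.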
